A study of Mus musculus with 12 samples.

Results

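In RAW264.7 macrophages, a line of murine origin, gene expression by RNA-Seq was compared between the 4 libraries numbered 1 and the 4 libraries numbered 3, 8 of the 12 libraries of the series. Members were chosen from the sample titles alone, which end in the number of the replicate. Each number holds 1 library of each of 4 groups, and every culture, kept in serum depleted of vesicles, had received extracellular vesicles (EVs) from the mouse endothelial line MS-1 for 48 h, dosed by EV protein at 3 µg per ml. The EVs had been electroporated with a miRNA mimic, which was a control (miR-ctrl, named as cel-miR-67 in the study's methods), miR-222-3p, miR-183-5p or miR-142-5p. No culture without EVs or with EVs that were not electroporated is among these groups, and all cultures are of 1 cell line. What a number stands for, such as a passage, a day of culture, an EV preparation or a round of library preparation, is not stated. The 4 libraries of a number can therefore share 1 source, so the p-values below measure the spread over 4 pairs of libraries and cannot tell apart a culture from a preparation.

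The groups, on which the pairing of number 1 with number 3 rests, are named after 3 miRNAs whose mature forms in RefSeq (GRCm38.p6) are these, with the seed that pairs with target transcripts, bases 2 to 8, in capitals. These are the reference forms of the miRNAs and not the synthetic oligonucleotides, whose length can differ. The 3 seeds differ.
miR-142-5p (entry mmu-miR-142a-5p, chr11:87756867-87756887, plus strand): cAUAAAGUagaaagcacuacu
miR-183-5p (chr6:30169711-30169732, minus strand): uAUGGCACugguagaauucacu
miR-222-3p (chrX:19146901-19146923, minus strand): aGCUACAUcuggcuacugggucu

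As background, a macrophage line kept in culture changes its transcriptome with cell density, oxygen, nutrients and serum. When oxygen falls, the prolyl hydroxylases that mark hypoxia-inducible factors for destruction slow down, and the factors then raise the genes of glucose uptake, glycolysis and mitochondrial turnover. When sterols are scarce, the SREBP factors raise the genes of cholesterol and fatty acid synthesis, and TFEB and its relatives raise those of the lysosome when nutrients are scarce. These programmes, with cell cycle, inflammatory and organelle genes, were examined as 41 gene lists.

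The summed estimated counts ranged from 18990222 to 22974853 over the 8 libraries, and the tested genes correlated between 0.983 and 0.990 within number 1, between 0.981 and 0.989 within number 3 and between 0.970 and 0.981 across numbers (Pearson's r of log2 normalized counts, across genes, which are not independent replicates). The share of counts from mitochondrially encoded genes was 4.47% to 4.62% in number 1 and 3.48% to 3.92% in number 3, with no overlap (exact sign-flip test over 4 pairs, two-sided, p = 0.13, the smallest that 4 pairs allow). Both miR-ctrl libraries stood apart from the rest of their number. The number 3 library of miR-ctrl took 7.29% of its counts from cytosolic ribosomal protein genes, against 5.95% to 5.99% in the other number 3 libraries and 5.86% to 6.46% in number 1, and its count-weighted mean transcript length was 2795 nt against 3099 to 3118 nt. The number 1 library of miR-ctrl lay nearest to number 3 on the first principal component. List counts that moved by over 1.5 times without this pair, or from 0, are given both ways.

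**Figure D1:**
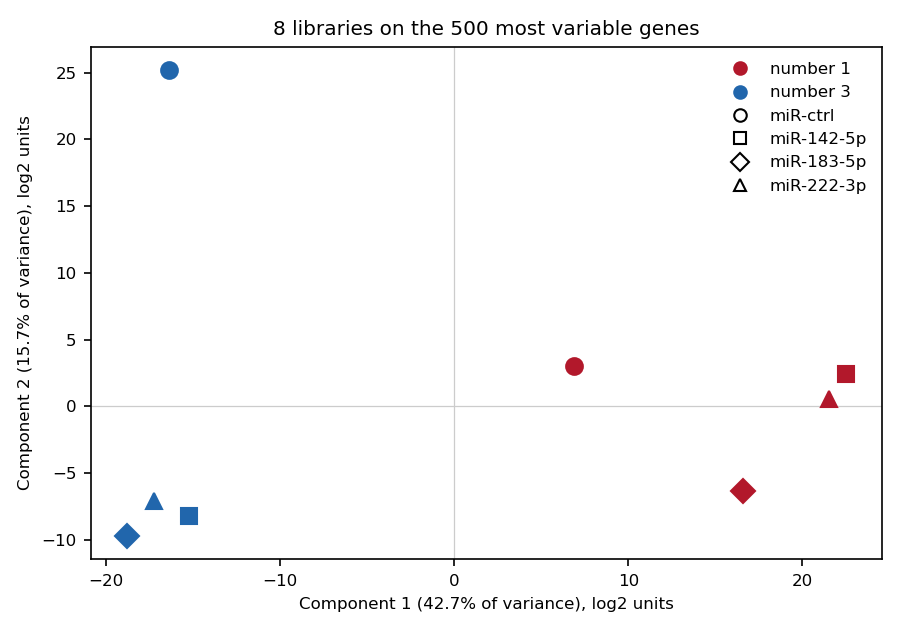
Principal components of the 8 libraries, from log2(normalized count + 1) of the 500 most variable genes, with component 1 on the horizontal and component 2 on the vertical axis (log2 units). Colour gives the number and shape the mimic. Component 1 places number 1 between 6.91 and 22.5 and number 3 between -18.8 and -15.2, and the number 3 library of miR-ctrl lies alone at 25.2 on component 2.

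Number carried more of the variance among these 8 libraries than treatment did, per degree of freedom. Over the 13212 genes tested, 40.4% of the sum of squares of log2 normalized counts lay between the numbers with 1 degree of freedom, 31.3% between the 4 treatments with 3, and 28.3% in the rest with 3. The mean square of number was 4.28 times that of the rest and the mean square of treatment 1.10 times. Component 1 held 42.7% of the variance of the 500 most variable genes and separated the numbers completely, whereas component 2, with 15.7%, mainly set the number 3 library of miR-ctrl apart.

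Between the numbers, 2924 of 13212 genes were called at an adjusted p under 0.05 (DESeq2 with treatment as a block, Benjamini-Hochberg over all genes tested), which is a background of 22.1%. Of these, 1626 were higher in number 1 (12.3% of the genes tested) and 1298 were lower (9.82%). Most differences were small. The median size among called genes was 0.46 on the log2 scale, 1276 reached 0.5 and 386 reached 1, of which 250 were higher and 136 lower. The called genes had the same sign in 4 of 4 pairs for 2668, and in 2304 the 4 values of number 1 lay wholly above or below those of number 3, as they did in 26.2% of all genes tested. The calls were made on these same pairs, so both counts describe them and are no separate support. The median log2 fold change over all genes was -0.00, so the scaling was centred on equal change. edgeR's quasi-likelihood test called 2723 of the 2924 genes in the same direction. Without the miR-ctrl pair 4149 of 12991 genes were called, 2233 higher and 1916 lower. List counts given below without that pair therefore have a larger background. Without 1 of the other 3 pairs 1333 to 1357 genes were called. With treatment as a block, leaving out 1 library also takes its partner out of the comparison. A call lost that way below is in effect a call lost without the pair.

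Genes of glycolysis and of the hypoxia response were higher in number 1 almost throughout. Of 37 tested members, 33 were called higher and none lower, with a median log2 fold change of 0.996 against -0.00 over all genes, and the 4 that missed the test were Pfkfb4 (-0.22), Car9 (0.02), Mxi1 (0.06) and Vegfa (0.17). Adm, which encodes the vasodilator peptide adrenomedullin, had 544, 1306, 993 and 1244 normalized counts in number 1 (always in the order miR-ctrl, miR-142-5p, then miR-183-5p, then miR-222-3p) and 118, 88.1, 94.2 and 96.4 in number 3. All number 1 values were above all number 3 values, with the miR-ctrl pair closest together, and the log2 fold change was 3.30 ± 0.37 (SE, 4 pairs, adjusted p = 3.41e-17). Bnip3, a mitophagy receptor of the outer mitochondrial membrane, had 6768, 10682, 9594 and 10476 counts in number 1 and 3190, 2695, 2145 and 2493 in number 3 (log2 fold change 1.83 ± 0.25, adjusted p = 6.86e-12). Pdk1, the kinase that holds pyruvate back from the mitochondrial matrix pathway by blocking pyruvate dehydrogenase, had 4453, 8199, 7163 and 7419 counts against 2272, 2572, 2379 and 2343 (1.48 ± 0.12, adjusted p = 6.33e-34). Ero1l, an oxidase of the endoplasmic reticulum that helps form disulfide bonds, had 14378, 28831, 25939 and 28490 counts against 7292, 7570, 6964 and 7660 (1.68 ± 0.13). Pfkp, the platelet form of phosphofructokinase, had 11368, 17566, 15710 and 15521 counts against 6730, 6397, 5885 and 6199 (1.24 ± 0.11). In each of these 4 genes the 2 numbers did not overlap, and the lowest value of number 1 was that of miR-ctrl.

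Nearly every step of glycolysis was represented. Log2 fold changes were 0.71 for Hk2, 0.77 for Gpi1, 1.24 for Pfkp, 0.98 for Aldoa, 1.13 for Tpi1, 1.01 for Gapdh, 1.20 for Pgk1, 0.61 for Pgam1, 0.87 for Eno1, 0.80 for Pkm and 0.79 for Ldha, all called higher in number 1, and the glucose transporter Slc2a1 and the lactate exporter Slc16a3 were higher by 1.09 and 0.996. The oxygen sensors Egln3 and Egln1, themselves raised by hypoxia-inducible factors, were higher by 1.75 and 1.03, and Ankrd37, a hypoxia-responsive ankyrin repeat gene, by 2.24. Within the pairs, the median difference of the list was 0.35 for miR-ctrl, 1.19 for miR-142-5p, 1.13 for miR-183-5p and 1.16 for miR-222-3p. The list was therefore higher in number 1 in 4 of 4 pairs, but by a smaller amount in the miR-ctrl pair, and whether that gap belongs to the treatment or to these libraries cannot be told apart with 1 pair per treatment.

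**Figure D2:**
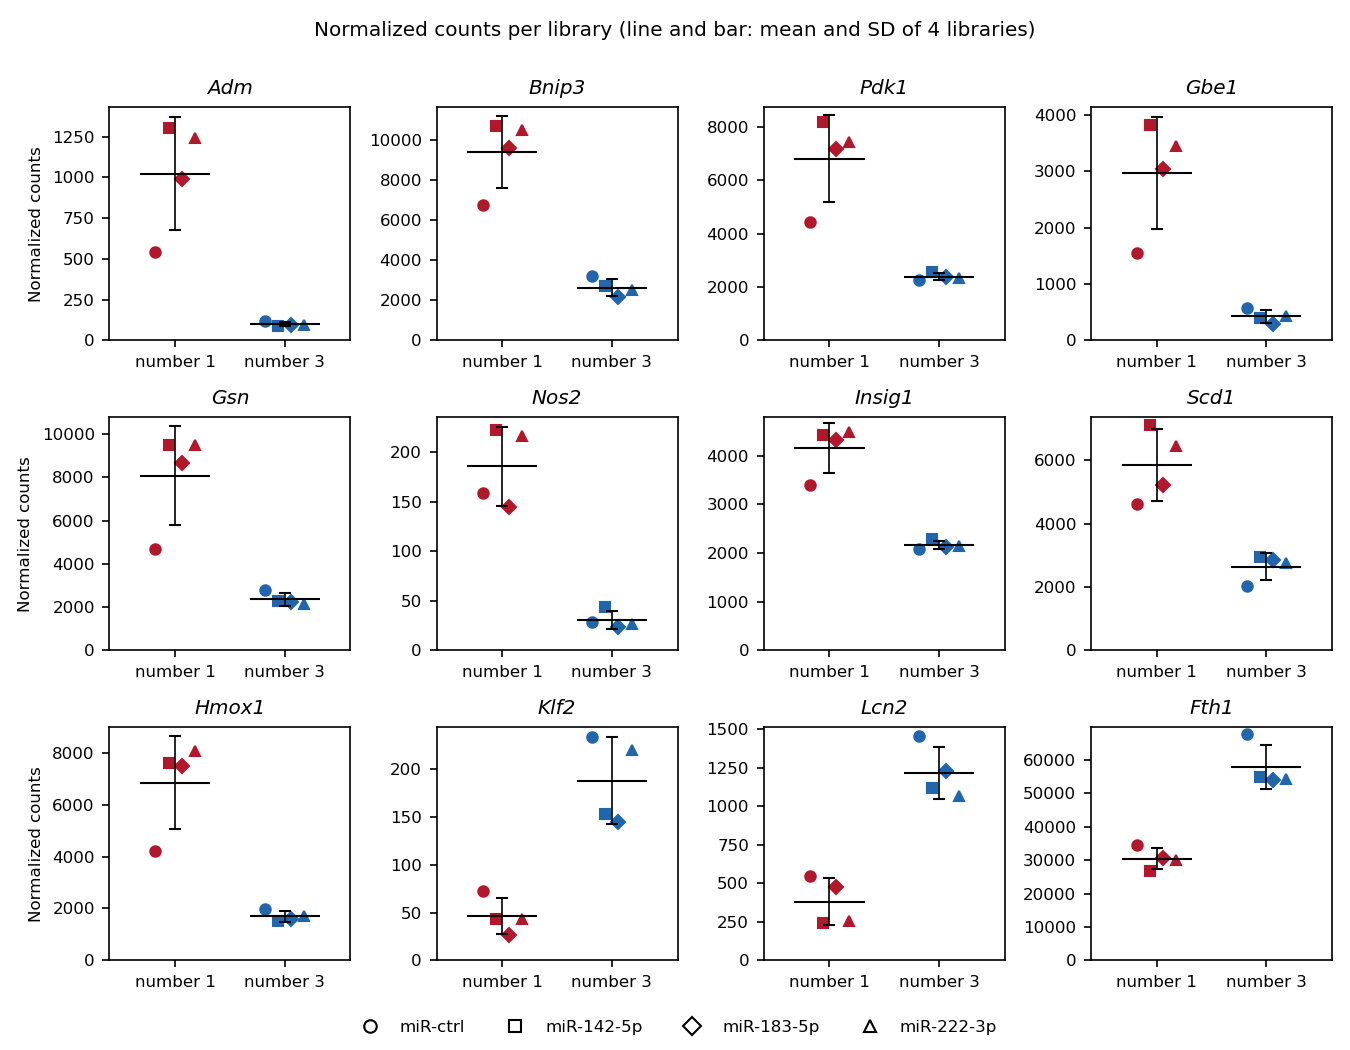
Normalized counts (vertical axes, linear, from 0) of 12 genes in the 4 libraries of number 1 (red) and of number 3 (blue), with shape giving the mimic, and the mean and SD of the 4 as a line and bar. Adm, Bnip3, Pdk1, Gbe1, Gsn, Nos2, Insig1, Scd1 and Hmox1 are higher and Klf2, Lcn2 and Fth1 lower in number 1, without overlap, as with Adm at 544 to 1306 against 88.1 to 118.

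Because these genes moved together, the promoters of those named above were searched for the core that hypoxia-inducible factors bind, ACGTG or GCGTG, on both strands, from 250 bases before to 50 after the start of the gene (RefSeq, GRCm38.p6). It is shown in capitals and given on the gene's strand, so that CACGT and CACGC are the same core on the other strand.
Adm (chr7:110627407-110627706, plus strand): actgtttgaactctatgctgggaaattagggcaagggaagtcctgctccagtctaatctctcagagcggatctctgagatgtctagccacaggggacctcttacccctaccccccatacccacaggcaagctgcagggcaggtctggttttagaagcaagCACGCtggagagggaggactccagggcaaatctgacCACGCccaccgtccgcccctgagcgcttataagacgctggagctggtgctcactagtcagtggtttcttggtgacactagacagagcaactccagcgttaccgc
Bnip3 (chr7:138909457-138909756, minus strand): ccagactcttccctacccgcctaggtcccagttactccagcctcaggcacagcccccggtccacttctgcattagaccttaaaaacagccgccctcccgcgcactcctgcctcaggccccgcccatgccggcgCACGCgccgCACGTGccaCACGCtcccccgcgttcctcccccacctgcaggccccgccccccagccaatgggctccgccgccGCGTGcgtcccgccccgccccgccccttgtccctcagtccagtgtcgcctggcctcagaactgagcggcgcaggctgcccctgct
Pdk1 (chr2:71872974-71873273, plus strand): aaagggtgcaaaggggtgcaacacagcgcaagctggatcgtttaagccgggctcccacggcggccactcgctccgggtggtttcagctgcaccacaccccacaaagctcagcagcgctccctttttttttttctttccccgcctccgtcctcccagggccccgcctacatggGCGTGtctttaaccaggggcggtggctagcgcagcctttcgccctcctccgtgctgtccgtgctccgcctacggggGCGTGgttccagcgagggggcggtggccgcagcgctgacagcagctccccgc
Ero1l (chr14:45318523-45318822, minus strand): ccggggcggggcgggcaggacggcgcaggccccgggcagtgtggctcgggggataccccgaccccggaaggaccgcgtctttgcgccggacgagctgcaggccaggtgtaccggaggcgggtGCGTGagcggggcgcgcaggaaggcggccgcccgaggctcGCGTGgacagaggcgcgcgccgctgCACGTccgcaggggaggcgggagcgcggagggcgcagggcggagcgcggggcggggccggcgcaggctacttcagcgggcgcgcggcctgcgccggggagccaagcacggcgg
Pfkp (chr13:6648722-6649021, minus strand): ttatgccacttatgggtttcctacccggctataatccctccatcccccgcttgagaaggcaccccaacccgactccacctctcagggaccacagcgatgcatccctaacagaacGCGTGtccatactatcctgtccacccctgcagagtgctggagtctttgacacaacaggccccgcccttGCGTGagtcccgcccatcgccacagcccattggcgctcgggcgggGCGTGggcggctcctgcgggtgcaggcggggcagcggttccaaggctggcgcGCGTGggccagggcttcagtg

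The cores numbered 2 in Adm and Pdk1, 3 in Ero1l, 4 in Pfkp and 5 in Bnip3, where 2 of them overlap on opposite strands. A promoter was found for 35 of the 37 tested members of the list, and 25 of the 31 matched members called higher held the core, a share of 80.6%. Of all 32851 promoters, which include those of genes not tested here, 43.8% held it. Among the 10015 tested genes for which a promoter was found 61.8% held it, as did 63.9% of those called higher and 61.6% of those not called. Since only 75.9% of the tested genes had one, the comparison with tested genes is void. The list was drawn from known glycolysis and hypoxia genes, so its share is no independent test, and nothing is read from either comparison. A match is a run of letters and not a measured binding site.

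Cholesterol synthesis was the second programme of number 1. Of 24 tested genes 19 were called higher and none lower, and the remaining 5 also had positive values, so that the range ran from 0.21 to 0.94 and the median was 0.57. Insig1, which holds the SREBP precursor in the endoplasmic reticulum when sterols suffice, had 3390, 4412, 4310 and 4487 counts in number 1 and 2087, 2292, 2131 and 2151 in number 3, without overlap (log2 fold change 0.93 ± 0.09, adjusted p = 1.42e-20). Idi1, an isomerase of the isoprenoid branch, had 2066, 3120, 2593 and 2867 counts against 1440, 1424, 1310 and 1313 (0.94 ± 0.11, adjusted p = 2.41e-14). In both genes the numbers did not overlap. The regulator Srebf2 differed less, by 0.42. Again the miR-ctrl pair showed the smallest median difference, 0.29, against 0.74, 0.54 and 0.84 in the other 3 pairs.

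Fatty acid synthesis went the same way, with 10 of 14 tested genes called higher, none lower, and a median of 0.56. Me1, the malic enzyme that supplies NADPH, had 13343, 13313, 12324 and 10969 counts in number 1 and 5984, 5803, 4947 and 4909 in number 3, and here the miR-ctrl pair differed as much as the others (1.21 ± 0.08, adjusted p = 3.92e-48). The desaturase Scd1 had 4605, 7104, 5220 and 6433 counts against 2029, 2948, 2837 and 2748 (1.14 ± 0.09), and Scd2 was higher by 0.90 ± 0.08. The synthase Fasn and the regulator Srebf1 were higher by 0.64 and 0.85. By contrast, of 12 LXR targets, which answer to oxysterols, 2 were called higher and 2 lower, or 4 and 3 without the miR-ctrl pair. A count of 2 is 16.7% of this list, beside 12.3% higher and 9.82% lower over all genes.

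The largest rises fell outside these pathways as well. The rule for naming them asked for a mean of at least 100 normalized counts, the same sign in 4 of 4 pairs and no overlap between the numbers. Gipr, the receptor of an incretin hormone, had 153, 431, 263 and 356 counts in number 1 against 23.9, 33.4, 6.66 and 13.9 in number 3, a log2 fold change of 4.03 ± 0.33 (adjusted p = 7.79e-32). Selenbp1, a selenium-binding methanethiol oxidase, had 1801, 5489, 4052 and 5270 counts against 704, 383, 285 and 426 (3.21 ± 0.56). Selenbp2 also rose (3.25 ± 0.35), but the transcripts of the 2 genes are 98.5% identical over their whole length, so how the counts divide between them is uncertain. Gbe1, the glycogen branching enzyme, had 1557, 3816, 3039 and 3450 counts against 580, 403, 289 and 429 (2.79 ± 0.43). Grin1, an NMDA receptor subunit, completed the group at 2.58 ± 0.25.

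Nos2, the inducible nitric oxide synthase by which the study scored the M1 state of macrophages, stood among the largest rises too. It had 159, 222, 144 and 217 counts in number 1 and 29.0, 43.5, 23.8 and 26.8 in number 3, a 6.10-fold difference without overlap (log2 fold change 2.61 ± 0.26, adjusted p = 1.37e-21). The cytokine genes Tgfb1 and Il1b, which the study also examined, did not pass the test. Tgfb1 had a log2 fold change of 0.04 ± 0.11 and Il1b of -0.14 ± 0.35, with adjusted p of 0.84 and 0.83. Arg1 was too low to be tested, with 0 to 12.0 normalized counts per library (12-library scaling). Within each pair, where the mimic, the EV dose and the duration were the same on both sides, Nos2 was higher in number 1.

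Cell cycle genes were higher in number 1 by small amounts. In bulk libraries more cells in a phase and more RNA per cell cannot be told apart. Among 30 G2/M genes 17 were called higher and none lower (median 0.29), or 22 and 1 without the miR-ctrl pair, led by the mitotic kinesin Kif20a (0.58 ± 0.09), the kinetochore protein Cenpf (0.56 ± 0.09) and the spindle factor Tpx2 (0.54 ± 0.10). Among 35 DNA replication genes 13 were called higher and none lower (median 0.23). Gins2, a subunit of the replicative helicase, had 278, 340, 377 and 366 counts in number 1 against 226, 153, 146 and 196 in number 3 (0.93 ± 0.19), and Tyms, which makes thymidylate, was higher by 0.70 ± 0.13. Of 17 p53 targets 4 were called higher and 2 lower, or 23.5% and 11.8%, beside 12.3% and 9.82% over all genes.

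Protein folding and mitochondrial transcripts followed. Of 18 heat shock genes 8 were higher and none lower, or 11 and 1 without the miR-ctrl pair, with Hspa4l, an HSP110 family chaperone, at 2948, 4118, 3533 and 3290 counts against 1252, 1682, 1444 and 1353 (1.28 ± 0.09, adjusted p = 7.89e-46), and its relative Hsph1 higher by 0.97 ± 0.09. Of the 13 mitochondrially encoded genes 9 were higher and none lower (median 0.30), which goes with the higher mitochondrial share of counts given above. mt-Co2, a subunit of cytochrome c oxidase, had 90684, 85286, 90089 and 90834 counts against 72591, 53724, 50856 and 50380 (0.67 ± 0.10), although a nuclear pseudogene, Gm28661, matches its transcript at 100% identity and the division of counts between them is uncertain. Of 75 nuclear genes of oxidative phosphorylation 12 were called higher, or 16.0% beside 12.3% over all genes, and 1 lower, or 1.33% beside 9.82%. Without the miR-ctrl pair 34 of the 75 were called higher and 1 lower. Over all 12991 genes tested without that pair 2233 were higher and 1916 lower. The same pair decided the cytosolic ribosomal proteins, of which 5 of 79 were called higher and 2 lower with it and 27 higher and 3 lower without it.

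Cytoskeletal genes were mostly higher in number 1, with 15 called higher and 1 lower of 28 (median 0.29). Gsn, which severs actin filaments, had 4693, 9483, 8641 and 9485 counts in number 1 and 2789, 2264, 2231 and 2126 in number 3, without overlap (1.74 ± 0.32, adjusted p = 1.48e-06). Actg1, a cytoplasmic actin, was higher by 0.65 ± 0.10 and Vcl, the focal adhesion protein vinculin, by 0.54 ± 0.09, while Lcp1, the leukocyte bundling protein plastin, was lower by 0.26 on the log2 scale (adjusted p = 0.0183), with a difference of 0.00 in the miR-ctrl pair and a call lost without any 1 library of the other groups. Anxa2, a membrane-binding annexin, was higher by 1.41 ± 0.28.

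**Figure D3:**
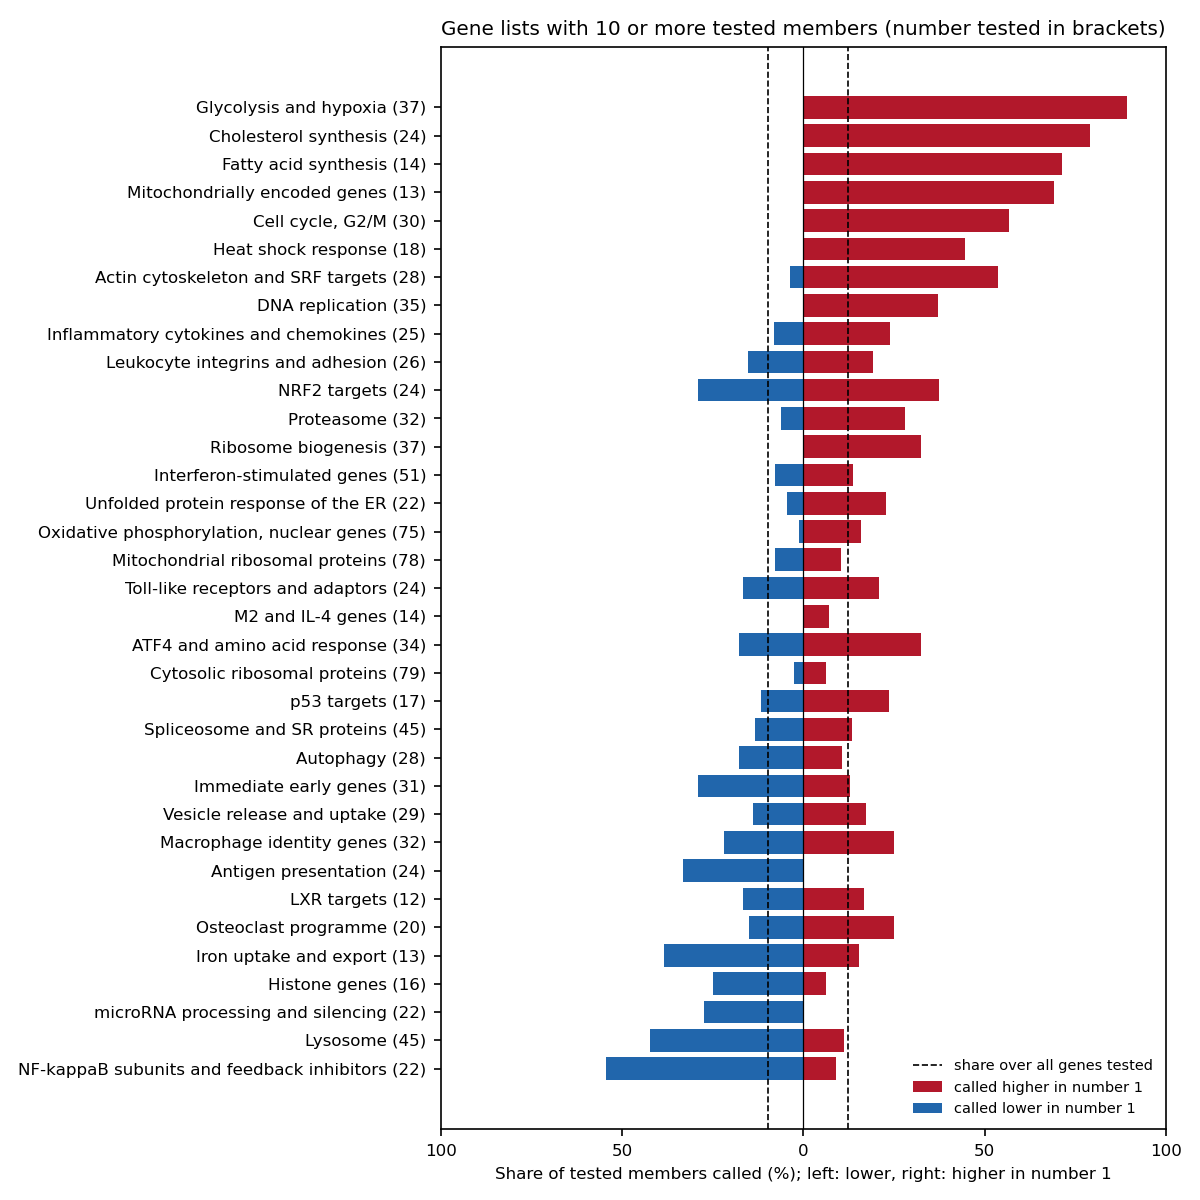
Share of the tested members of each gene list called higher (red, to the right) or lower (blue, to the left) in number 1, in percent, for lists with 10 or more tested members, ordered by median log2 fold change. Dashed lines mark the share over all genes tested, 12.3% higher and 9.82% lower, and glycolysis and hypoxia stands at the top with 33 of 37 called higher.

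Genes of iron handling and of the NRF2 response to oxidants did not move as 1 group. Hmox1, which degrades haem and frees its iron, had 4205, 7613, 7506 and 8080 counts in number 1 and 1963, 1515, 1583 and 1721 in number 3 (1.98 ± 0.29, adjusted p = 2.66e-10). Fth1, the heavy chain of the iron store ferritin, went the other way, with 34415, 26661, 30504 and 29940 counts against 67751, 54986, 54089 and 54332 (-0.93 ± 0.08, adjusted p = 1.70e-28). Its partner chain Ftl1 was lower by 0.34 ± 0.09 and the iron exporter Slc40a1 by 0.50 ± 0.13, both calls that were lost when single libraries were left out. Of 24 NRF2 targets 9 were higher, among them the cystine importer Slc7a11 (0.85 ± 0.10), and 7 were lower. These are 37.5% and 29.2%, beside 12.3% higher and 9.82% lower over all genes.

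Lysosomal genes were lower in number 1 more often than higher. Of 45 tested 19 were called lower and 5 higher (median -0.19), and without the miR-ctrl pair 24 were lower and 6 higher. Psap, the precursor of the saposins that help degrade sphingolipids, had 26459, 22718, 25180 and 25943 counts in number 1 against 40141, 37609, 41251 and 40146 in number 3 (-0.67 ± 0.08, adjusted p = 3.41e-16). Hexa, the alpha chain of hexosaminidase, had 9323, 6711, 7477 and 6768 counts against 13328, 12309, 12122 and 11828 (-0.72 ± 0.09). For Atp6v0d1, a subunit of the proton pump that acidifies the lysosome, the difference was -0.76 ± 0.09. The regulator Tfeb was lower by 0.56 and the autophagy receptor Sqstm1 by 0.73. Against this direction, the ganglioside activator Gm2a was higher by 0.76 ± 0.13. Autophagy genes had 5 lower and 3 higher of 28 (6 and 5 without the miR-ctrl pair). These are 17.9% and 10.7%, beside 9.82% lower and 12.3% higher over all genes. The ATG8 family members Gabarap (-0.51 ± 0.09) and Gabarapl2 (-0.61 ± 0.11) were among the lower.

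Subunits and feedback inhibitors of NF-kappaB, the transcription factor family behind many inflammatory genes, were lower in number 1 for 12 of 22 and higher for 2 (median -0.30), or for 13 and 5 without the miR-ctrl pair. Nfkbie, an inhibitor that is itself an NF-kappaB target, had 295, 202, 187 and 233 counts in number 1 and 459, 416, 421 and 405 in number 3 (-0.91 ± 0.16, adjusted p = 1.59e-07). Tnip1, which limits signalling upstream, had 2101, 1679, 1345 and 1733 counts against 2984, 2482, 2765 and 2566 (-0.67 ± 0.11), and the subunits Relb, Nfkb2, Rela and Nfkb1 were lower by 0.71, 0.45, 0.33 and 0.32. Nfkbia, the best known inhibitor, was the exception with Tnfaip3, at 0.42 ± 0.12 higher (adjusted p = 0.00339). The Nfkbia call was lost when a library of the miR-142-5p or the miR-222-3p pair was left out.

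Antigen presentation genes had 8 called lower and none higher of 24, but divided into 8 lower and 5 higher without the miR-ctrl pair, whose median difference was the lowest of the 4 at -0.29. H2-Aa, an MHC class II chain, was low throughout, with 24.4, 28.7, 22.6 and 8.24 counts in number 1 and 85.8, 65.4, 58.2 and 74.3 in number 3 (-1.82 ± 0.39, adjusted p = 5.64e-05). The costimulatory receptor Cd40 was lower by 0.73 ± 0.13 and the costimulatory ligand Cd86 by 0.42 ± 0.09, whereas B2m and H2-K1 had values of -0.08 and -0.00. Immediate early genes, which answer signals within minutes, were called lower for 9 and higher for 4 of 31. These are 29.0% and 12.9%, beside 9.82% lower and 12.3% higher over all genes. Klf2, a transcription factor that quiets macrophages, had 72.3, 43.0, 27.0 and 43.1 counts against 234, 153, 145 and 221 (-2.06 ± 0.25, adjusted p = 4.85e-15), and Rhob, a small GTPase of endosomes, was lower by 0.86 ± 0.10, while Ier3 was higher by 1.21 ± 0.13.

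Genes of macrophage identity and function went both ways, with 8 higher and 7 lower of 32. Csf1r, the receptor on which macrophages depend for survival, had 2804, 4077, 4116 and 5028 counts in number 1 and 2276, 2151, 2503 and 2673 in number 3 (0.71 ± 0.11, adjusted p = 6.26e-09), while its ligand Csf1 was lower by 0.84 ± 0.14. The phagocyte oxidase divided, since its catalytic chain Cybb was higher by 1.12 ± 0.18, with overlapping values, and its partner Cyba lower by 0.82 ± 0.08. Among integrin chains, Itgb2, the common chain of the leukocyte integrins, was higher by 0.64 ± 0.10 and Itgb3 lower by 1.45 ± 0.28. Tlr13, a receptor of bacterial RNA, was higher by 1.16 ± 0.12 and the flagellin receptor Tlr5 lower by 1.30 ± 0.35. The Tlr5 call was lost without either library of miR-183-5p or miR-222-3p. The list of Toll-like receptors and adaptors had 5 higher and 4 lower of 24, or 20.8% and 16.7%. Spp1, the secreted phosphoprotein osteopontin, had 20625, 18242, 20567 and 17173 counts against 10866, 9977, 9302 and 9361 (0.95 ± 0.08, adjusted p = 4.44e-27).

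For the remaining lists only the counts and a few members are given, to be read beside the 12.3% higher and 9.82% lower over all genes. Cytokines and chemokines had 6 higher and 2 lower of 25, genes of the M2 state 1 and 0 of 14, genes of the osteoclast programme 5 and 3 of 20, histone genes 1 and 4 of 16, iron genes 2 and 5 of 13 and vesicle release and uptake 5 and 4 of 29. The ATF4 and amino acid response divided into 11 higher, such as the serine enzymes Psph (0.92 ± 0.12) and Psat1 (0.63 ± 0.10), and 6 lower of 34, such as the stress factor Ddit3 (-0.59 ± 0.09). Ribosome biogenesis was called higher for 12 and lower for none of 37, or 32.4%, and for 15 and 1 without the miR-ctrl pair.

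The counts of 6 further lists moved without the miR-ctrl pair. Over all genes the counts went from 1626 to 2233 higher and from 1298 to 1916 lower. The proteasome had 9 higher and 2 lower of 32 with the pair and 16 and 3 without it, and the unfolded protein response 5 and 1 of 22 with it and 10 and 1 without. Mitochondrial ribosomal proteins went from 8 and 6 of 78 to 20 and 4, interferon-stimulated genes from 7 and 4 of 51 to 13 and 3, and integrin and adhesion genes from 5 and 4 of 26 to 9 and 4. Splicing factors, at 6 and 6 of 45, had 8 higher and 11 lower without the pair.

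The machinery that processes miRNAs and silences their targets had 6 lower and none higher of 22, of which edgeR called 3 lower. The share lower was 27.3%, beside 9.82% over all genes. No member of the list separated the numbers without overlap. The median difference of the list was 0.08 in the miR-ctrl pair and between -0.27 and -0.13 in the others. Without that pair 10 were lower and 1 higher, beside 1916 lower and 2233 higher of all 12991 genes tested. Dicer1, which cuts the precursors, had 2059, 1990, 1999 and 1821 counts in number 1 and 1798, 2964, 2874 and 2563 in number 3, so the miR-ctrl pair went against the other 3. The Dicer1 call (-0.35 ± 0.12, adjusted p = 0.0261) was lost when any 1 of those 3 pairs lost a library, and under edgeR (adjusted p = 0.0727).

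The largest falls by the same rule were in genes of varied function. Klf2 is given above. Lcn2, which binds bacterial iron carriers, had 546, 242, 479 and 257 counts in number 1 and 1452, 1115, 1225 and 1067 in number 3 (-1.75 ± 0.15, adjusted p = 2.11e-28). Tenm4, a teneurin of the cell surface, had 569, 79.8, 234 and 108 counts against 799, 1251, 1401 and 1178 (-2.68 ± 0.68), its difference within the miR-ctrl pair was -0.49, and its call was lost without either library of miR-222-3p. Avil, an actin-binding protein of the gelsolin family, had 801, 253, 531 and 268 counts against 1758, 1791, 1926 and 1881 (-2.16 ± 0.39), so it moved against Gsn. Pde3b, a cyclic AMP phosphodiesterase, was lower by 2.17 ± 0.29, the poly(A) polymerase Tent5c by 1.95 ± 0.27 and the sterol-binding Osbp2 by 1.69 ± 0.38. Snd1, a nuclease of the silencing complex, was lower by 1.64 ± 0.31 with the transcript length offset and by 0.23 without it, so its value depends on the estimated mixture of its long and short transcripts.

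The differences recurred from pair to pair. When 1 of the other 3 pairs than miR-ctrl was held back (in the same order), 1357, 1333 or 1350 genes were called in the other 3, and 98.6%, 98.8% and 98.6% of them had the same sign in the pair held back, against 77.0%, 77.1% and 76.5% of all genes tested. When the miR-ctrl pair was held back, 4149 genes were called and 71.0% of them had the same sign in it, against 61.2% of all genes. The median difference in the direction of the call was 0.14 in the miR-ctrl pair, where the other 3 pairs had a median size of 0.42. The 4 pairs share no library, but libraries of 1 number can share a source, so this is a recurrence across libraries and not across independent cultures.

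**Figure D4:**
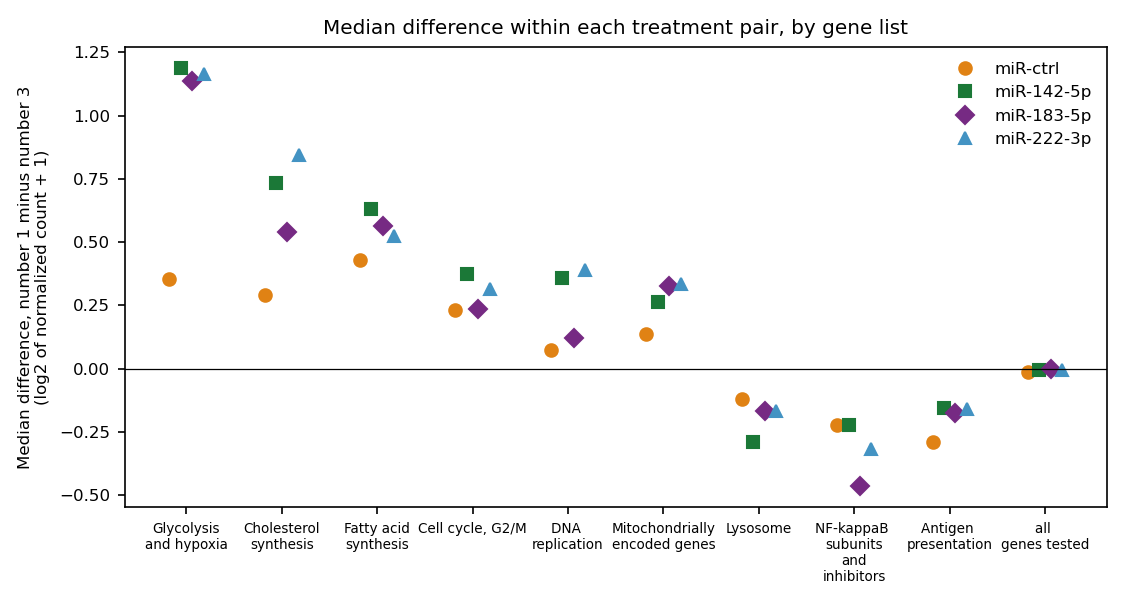
Median over the genes of each list of the difference number 1 minus number 3 within each treatment pair, in log2 of normalized count + 1, for 9 lists and for all genes tested. The miR-ctrl pair (orange) lies at 0.35 for glycolysis and hypoxia, below the other pairs at 1.13 to 1.19, and for antigen presentation at -0.29 it lies beyond them.

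Part of the miR-ctrl difference followed gene length and base composition. With genes in 5 equal classes from the shortest to the longest transcripts, the median difference within the miR-ctrl pair went from -0.12 to 0.14, while the mean of the other 3 pairs went from 0.03 to -0.07. From the lowest to the highest of 5 classes of GC content it went from 0.12 to -0.14, against -0.00 to 0.00. Correcting each library for length gave 3259 called genes and correcting for GC content 3049, both above the 2924 without correction. The part of length and composition in the pathway differences was not tested beyond these corrections.

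Treatment was also tested within the same 8 libraries. Each treatment group holds fewer libraries than each number, and a test without the number leaves the difference between numbers in the spread. The counts of genes called by treatment and by number therefore do not measure their relative size. A likelihood ratio test over the 4 groups without the number called 4 genes, 0.0303% of those tested, and with the number as a block it called 38, or 0.288%, of which 26 were also called between the numbers. The 4 genes, named here after their values were seen, were Cr2, Gm49378 and the pseudogenes Gm10925 and Gm13502. Cr2, a complement receptor, had 3.97, 11.2, 46.7 and 32.8 counts in number 1 and 1.55, 17.9, 51.8 and 28.6 in number 3. edgeR called 0 genes without the block, with 135 at an unadjusted p under 0.05, and 0 with it, with 737.

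The number 2 libraries, which took no part in the comparison above, lay farther from both numbers than these lay from each other. In a fit of all 12 libraries 3264 genes were called between numbers 1 and 3, 8036 between numbers 2 and 1 (58.9% of 13646 tested) and 8537 between numbers 2 and 3 (62.6%). These comparisons share libraries, so their values are only set side by side. The median log2 fold change of the glycolysis and hypoxia list was 0.36 for number 2 over number 1 and 1.498 for number 2 over number 3, and that of cholesterol synthesis was 0.56 and 1.005. DNA replication genes stood in another order, at -0.90 and -0.58. Adm was higher in number 2 than in number 1 by 1.67 and than in number 3 by 4.95, whereas Gipr was at -0.11 and 3.93 and Nos2 at -2.17 and 0.44. Of the 1626 genes called higher in number 1 than in number 3, number 2 had a mean above both in 639, between them in 525 and below both in 462, and of the 1298 called lower it was above both in 243, between in 378 and below both in 677.

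**Figure D5:**
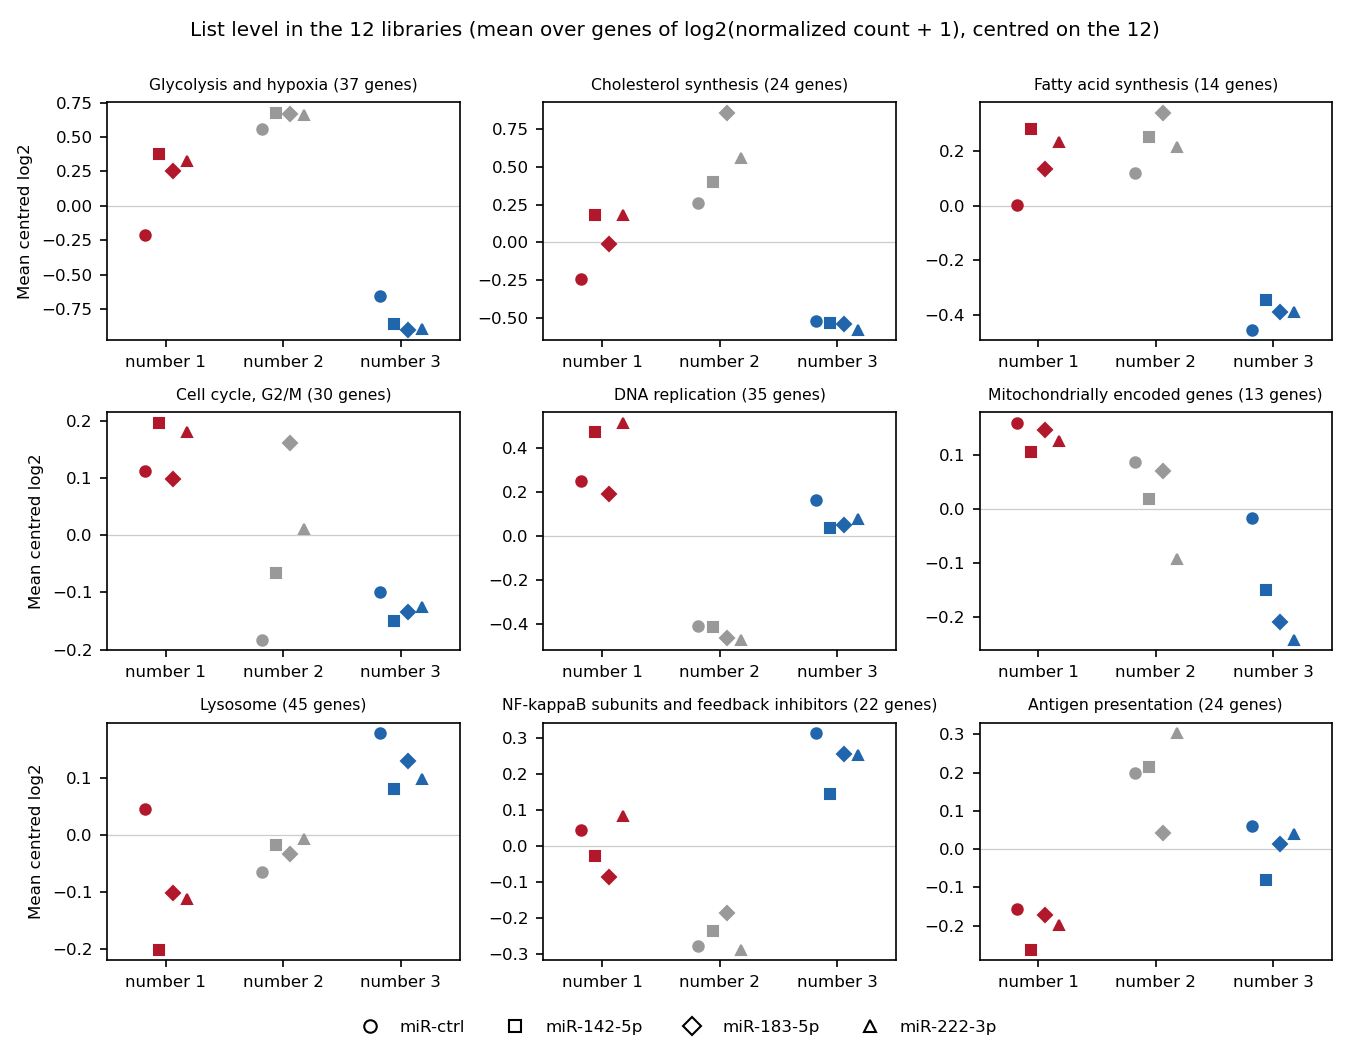
Level of 9 gene lists in the 12 libraries, as the mean over the genes of log2(normalized count + 1) after centring each gene on the 12 libraries, with colour for the number and shape for the mimic. Glycolysis and hypoxia ran from -0.90 to -0.66 in number 3, from -0.21 to 0.38 in number 1 and from 0.55 to 0.67 in number 2, with no overlap.

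Markers of the labelled cell type were present in all 8 libraries. Of 10 macrophage markers 9 passed the filter on low counts, with summed levels of 1514 to 1619 CPM (counts scaled to equal library totals) in number 1 and 1531 to 1574 in number 3, and Mrc1 was below 10 counts in each library. Single macrophage markers still differed, with 2 of the 9 called higher and 1 lower in number 1. Adgre1 had 222 to 279 estimated counts in number 1 and 102 to 155 in number 3. Of 12 endothelial markers 5 were tested, and the summed level of the list was 23.5 to 24.9 CPM in number 1 and 30.8 to 33.6 in number 3. Vwf, the von Willebrand factor, had 75.8 to 106 estimated counts in number 1 and 238 to 344 in number 3 (log2 fold change -1.63 ± 0.19), and the angiopoietin receptor Tek had 3 to 11 against 21 to 30 (-1.98 ± 0.60). The junction protein Cdh5 went the other way, with overlapping counts of 11 to 25 against 4 to 14 (2.50 ± 0.62). Without the length offset the Cdh5 value was 1.39 and its call was lost. Pecam1 and Egfl7 were not called. Cldn5 was at 0 in all 8 libraries, and Kdr did not exceed 3 counts. The other lists were lower still, at up to 1.66 CPM for 7 fibroblast, 0.826 for 5 epithelial and 1.53 for 5 lymphocyte markers. Whether RNA of the vesicles or of their donor cells has a part in the endothelial values was not tested.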

How the data were processed

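Polyadenylated RNA was sequenced as stranded read pairs, and per the methods the authors assigned the reads with Salmon to Ensembl mouse transcripts. The release named there and the one carried by the names of the deposited set differ, and the processing notes name GRCh38, a human build. The deposited files give for each transcript an estimated count (not normalized), a TPM value, which the authors' tool scales to a constant sum and which was not used, a length and an effective length, deposited as numbers of bases. Filters are not given in the sources used here.

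Here, 116710 of 118783 transcripts (98.3%) matched GENCODE vM21 and their counts were summed to 35944 genes; the others held 0.570% to 0.642% of the counts. Estimated counts were rounded. A gene was tested when 4 or more of these libraries held 10 counts or more. The test was DESeq2 1.42.0 (R 4.3.3), Wald, with a model of treatment and number, the average transcript length as offset and a threshold of 0.05 on the adjusted p. Treatment was tested by DESeq2's likelihood ratio test. Normalized counts are divided by size factor and length offset. 513 genes had no adjusted p. edgeR 4.0.16, other scalings, filters and blocks, no length offset, corrections for length and GC content, and leaving out libraries were the alternatives. On simulated data (13212 genes) DESeq2 recovered 55 of 100 genes changed by 0.5 and 100 of 100 changed by 1 on the log2 scale, with 24 false calls. There, few genes were changed, none of very low count, equally in all pairs and with noise independent between libraries. These rates need not hold for the real calls. Depth limits a value by counting: a count of 0 allows up to 3 counts, or 0.131 to 0.158 CPM over the 8 libraries.

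Numbers pair libraries across treatments: differences of number 1 minus number 3 correlated between all treatment pairs (r = 0.27 to 0.63 across genes). The pairing comes from the titles. Across numbers, libraries of the same treatment correlated at 0.973 to 0.979 and those of other treatments at 0.970 to 0.981. As deviations from the mean of their number, the same-treatment values were 0.01 to 0.12 and the others -0.13 to 0.09. Libraries of the same treatment were thus hardly more alike. Named genes were the 8 largest rises and falls (protein coding, mean of at least 100, 4 of 4 pairs, no overlap, same sign without the offset), in each list with 3 or more calls in 1 direction the 3 with the lowest adjusted p and the lowest one the other way, and the polarization genes. Other members are named to describe a list. Some genes that the rule names are not reported here. The comparison, lists and rule were chosen with earlier results of these data known. Transcripts were compared with BLAST 2.17.0.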

Additional observations from a re-analysis of the deposited data

Results flagged for a closer look

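In 278 sets of 4 libraries (named genes and library measures within a number), 34 had a highest or lowest library far from the other 3 by Dixon's criterion, or 12.2%, where chance flags about 1 in 20 groups. Of these, 15 concern number 3, and in all of these the library was miR-ctrl. It was high for Fth1 at 67751 normalized counts against 54089 to 54986, Actg1 at 10832 against 8569 to 8736, the lysosomal Atp6v0d1 at 4644 against 3959 to 4068 and Gm2a at 1416 against 1122 to 1145. It was also high for the mitochondrial mt-Co2 at 72591 against 50380 to 53724 and Mrpl30 at 2397 against 1795 to 1837, and for the ribosomal proteins Rpl41 at 14739, Rpl37a at 10205 and Rpl7 at 47863. It was low for the stress sensor Ern1 at 3564 against 4744 to 4785, Csf1 at 532 against 583 to 584 and Cd180 at 1096 against 1427 to 1466. Its library measures stood apart too, with ribosomal proteins at 7.29% of counts, a weighted transcript length of 2795 nt and retained introns at 3.79% against 4.22% to 4.23%.

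In number 1, the miR-ctrl library was the one apart in most sets. It was low for Insig1 at 3390 against 4310 to 4487, Pdia6 at 8567 against 11104 to 11397, Hmox1 at 4205 against 7506 to 8080, Itgb2 at 4427 against 5528 to 5685, Ndufv3 at 2364 against 2679 to 2712, Psmd6 at 1426 against 1682 to 1729 and Anxa2 at 5813 against 9027 to 9386. It was high for Nfkbiz at 1051 against 785 to 812, Lcp1 at 26167 against 20259 to 20580, Atp6v0d1 at 3201 against 2204 to 2269, Gabarap at 4646 against 3164 to 3348, Psmc2 at 4232 against 3000 to 3190, H3f3b at 12847 against 9824 to 10212, H1f0 at 13412 against 10497 to 10814 and Rab7 at 5582 against 4173 to 4282. The remaining sets were Tyms, high in miR-222-3p at 957 against 742 to 769, Actg1, high in miR-183-5p at 16451, mt-Co2, low in miR-142-5p at 85287 against 90089 to 90834, and the weighted transcript length, low in miR-222-3p at 2936 nt against 2984 to 2992 nt.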

How the results depend on the processing

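The number of genes called between numbers 1 and 3 (2924) moved most with the libraries used. With treatment as a block, leaving out 1 library also takes its partner out of the comparison, so each such fit rests on the other pairs. Leaving out 1 library gave 1250 to 4007 genes, with 779 to 2169 higher and 461 to 1845 lower, and the counts above 2924 came only from leaving out a miR-ctrl library. Without the treatment block and without the number 3 library of miR-ctrl (an alternative chosen after the data were seen) 4502 genes were called, 2075 of them lower. The other settings gave 2757 to 4149. Of the named genes, 132 with a fit, none changed direction in any of 2505 values, and 160 values, over all settings, were no longer past the threshold. Leaving out 1 library ended the call of 34 genes in at least 1 case.

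The treatment test (4 genes) gave 38 with the replicate block, 7 without a filter on low counts, 29 without the number 1 library of miR-ctrl and 4 to 5 without any other library, and edgeR gave 0, also with the replicate block. The share of variance between numbers was 40.6% over the 500 most variable genes and 44.8% without the length offset, and that of treatment 31.8% and 29.2%. The causes were not tested. Depth limits genes of low count, such as Arg1, for which no difference was detectable.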
